A study of Homo sapiens with 9 samples.

Results

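The genes described here are 10 neighbours of MEF2C on chromosome 5, named by GENCODE release 44 symbol and taken out of 62700 genes in the count table. They are TMEM161B, TMEM161B-DT, CCNH, CETN3, MBLAC2, POLR3G, LYSMD3, ADGRV1, RASA1 and ARRDC3, given here in order of the distance between their 5′ end and that of MEF2C, in Mb rounded to 2 decimals (MBLAC2 ties with POLR3G and LYSMD3 with ADGRV1), and 9 of the 10 passed the filter on low counts that left 14436 genes for testing. The rule names neighbours by position and uses no measured value, it does not take in every gene of the region, and MEF2C serves only as the reference. The RNA came from HAL-01, a line of B lineage lymphoblastic leukemia that carries the t(17;19) translocation and makes the TCF3::HLF fusion. All cells stably carried Cas9GFP, and all were collected on day 13. Libraries labelled sgRNA_96 and sgRNA_97 make up the class with the genotype MEF2C Enhancer KO, with 3 libraries each, and 3 libraries with the scrambled guide SCR1 are the control. Both KO guides were aimed at the binding motif of TCF3::HLF in the MEF2C enhancer, so that the comparison reads the genes of the region when this motif is targeted.

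The guides were delivered by lentivirus to bulk cultures of a single cell line. The share of edited alleles was not analysed here, and unedited cells may be among those sequenced. The labels give the replicates the numbers 1, 3 and 4 and do not say whether they were separate cultures, so that p-values measure the spread between these libraries, which may be technical. In bulk RNA, fewer cells with a transcript and less of it per cell cannot be told apart.

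An enhancer is a stretch of DNA that raises transcription from a promoter at a distance by being brought near it in a chromatin loop. Enhancers can pass over a nearer promoter for a farther one and can reach several genes of a domain. MEF2C is a MADS-box transcription factor of muscle, neurons, blood progenitors and B lymphoid cells, and it lies in a wide region with few other protein-coding genes.

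The sequences of the targeted site are shown first. The distances of the neighbours are counted from the annotated 5′ end of MEF2C and not from this site. The study's oligonucleotide list holds a pair of guides that cover the HLF motif, named E.1 and E.2, and the labels do not say which of them is sgRNA_96 and which sgRNA_97. Capitals mark the motif TTACATAA.
E.1: tagcaTTACATAAtacatgt
E.2: ttagcaTTACATAAtacatg
Each guide matched the hg38 genome perfectly at 1 place, on the minus strand of chromosome 5, E.1 at chr5:88825103-88825122 with the PAM GGG and E.2 at chr5:88825104-88825123 with the PAM TGG. Taking the usual Cas9 cut 3 bases from the PAM, E.1 would cut after base 88825105 and E.2 after base 88825106, both outside the motif at chr5:88825110-88825117. The site lies inside the MEF2C gene, 79152 and 79151 bases from its annotated 5′ end, in introns of 28 of its 57 annotated transcripts and in no MEF2C exon. Most MEF2C counts were assigned to transcripts that start nearer the site. MEF2C-249, MEF2C-244 and MEF2C-217, with 25.6%, 24.9% and 24.4% of its counts in SCR1, start between bases 88883184 and 88883747. MEF2C-202, which starts at the annotated 5′ end (base 88904257), held 5.45%. On the plus strand of hg38, chr5:88825069-88825157, the surrounding bases read as follows, with the motif in capitals as its reverse complement.
Motif and surroundings: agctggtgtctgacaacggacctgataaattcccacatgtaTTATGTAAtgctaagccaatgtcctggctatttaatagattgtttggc

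Total counts ranged from 15212462 to 29777361 per library, and the deepest library was SCR1 replicate 1. All 10 listed markers of B lineage leukemia were detected, with a summed level of 3386 to 3591 TPM (a level per transcript length, scaled to the same sum in each library) in SCR1 and 3023 to 3524 TPM in KO. No erythroid marker had a count, and CD3D, CD3E, CD3G and TRAT1 of the T cell list, ELANE of the myeloid list and COL1A2 and COL3A1 of the stromal list were at 0 in every library. Myeloid markers summed to 13.1 to 16.4 TPM in SCR1 and 12 to 16.7 TPM in KO, and stromal markers to 5.11 to 6.79 TPM and 4.5 to 6.39 TPM, with overlapping ranges. By edgeR, 1 of 10 B lineage markers and 1 of 2 myeloid markers tested were called between KO and SCR1, and their part in the results was not tested. MEF2C, the reference, was at 552 ± 13.4 CPM in the controls (counts scaled to library size, mean ± SD, n = 3), and the 6 KO libraries averaged 509 ± 22.1 CPM. Its log2 fold change was -0.12 (95% interval -0.20 to -0.03), which missed the threshold of 0.05 in edgeR (adjusted p = 0.062) and passed it in DESeq2 (adjusted p = 0.0265, with 22.5% of all genes called) and with an added offset for gene length trends (adjusted p = 0.0234 in edgeR).

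Of the 9 neighbours tested, TMEM161B-DT and TMEM161B, a divergent pair that starts 0.64 and 0.63 Mb from the MEF2C 5′ end, had higher counts in enhancer KO than in SCR1. The other 7 did not pass the test, and none was called lower. The share of 22.2% (2 of 9) stands beside 20.7% of all 14436 genes called in this comparison (2984 genes, 1458 higher and 1526 lower), and 10.1% of all genes were called higher. On chromosome 5, 21.8% of the 655 genes tested were called. The median log2 fold change was 0.11 over the 9 neighbours, with 7 of them above 0, and 0.00 over all genes tested, of which 50.5% were above 0. The median absolute log2 fold change was 0.16 for the neighbours and 0.15 for all genes. Both calls rest on counts and were lost on the scales that correct for the length of the transcripts used in each library, as given with each gene.

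**Figure D1:**
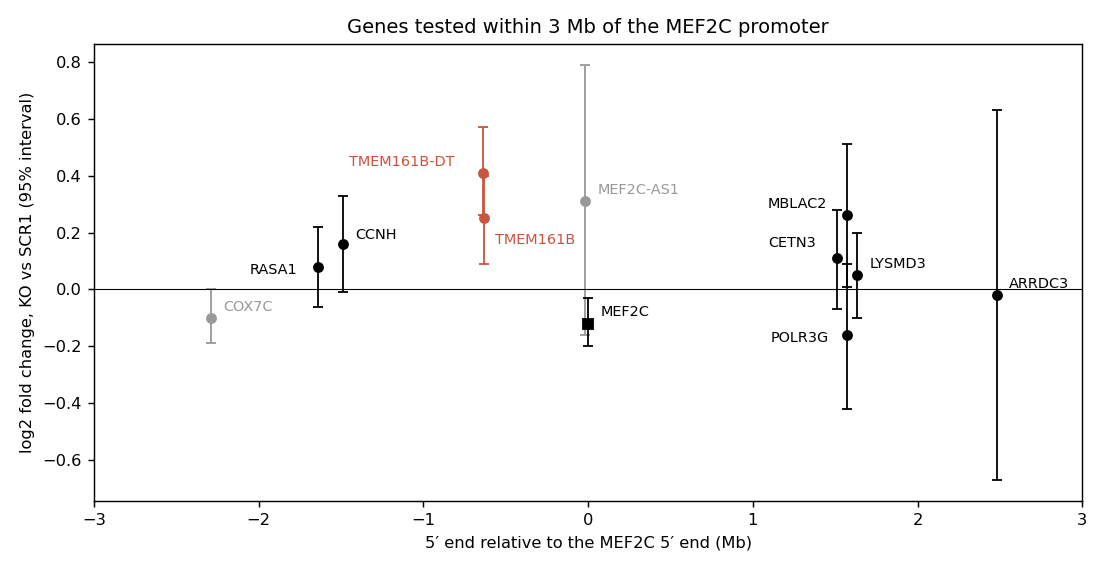
Log2 fold change of estimated counts (enhancer KO, n = 6 libraries, against SCR1, n = 3) for the 12 genes tested within 3 Mb of the MEF2C promoter, plotted against the position of their 5′ end relative to that of MEF2C. Bars are 95% intervals, red marks an adjusted p under 0.05, the square is MEF2C and grey marks genes that are not among the 10 neighbours. TMEM161B-DT (0.41) and TMEM161B (0.25) are the genes in red, and the intervals of MBLAC2 (0.01 to 0.51) and MEF2C (-0.20 to -0.03) also leave out 0.

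TMEM161B (ENSG00000164180.14, minus strand, chr5:88189633-88269476) encodes a multipass membrane protein known for a part in heart rhythm. It was read at 29.1, 31.8 and 33.2 CPM in the SCR1 libraries, at 33.2, 38.1 and 41 CPM with sgRNA_96 and at 39.5, 36.8 and 34.3 CPM with sgRNA_97. All 6 KO libraries were above the controls, although the lowest KO and the highest control library both rounded to 33.2 CPM, and 10.1% of all genes tested had every KO library above every control in CPM. The log2 fold change was 0.25 (95% interval 0.09 to 0.40, edgeR adjusted p = 0.0248), a 1.19-fold difference. The call was lost without SCR1 replicate 1 (adjusted p = 0.166 in edgeR), without SCR1 replicate 3 (0.0537) and without sgRNA_96 replicate 3 (0.0503).

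TMEM161B-DT (ENSG00000247828.10, plus strand, chr5:88268864-88439337) is the long noncoding RNA that starts beside TMEM161B and runs the other way. Its SCR1 libraries held 34, 36.4 and 34.1 CPM, the sgRNA_96 libraries 42.4, 46.9 and 52.9 CPM and the sgRNA_97 libraries 42.4, 49.5 and 43.7 CPM. The groups did not overlap, and the lowest KO library was at 42.4 CPM where the highest control was at 36.4 CPM. With a log2 fold change of 0.41 (95% interval 0.26 to 0.57, edgeR adjusted p = 0.000979), or 1.33-fold, it showed the largest called difference among the neighbours. This call held without any single library, at adjusted p between 0.000382 and 0.0115 in edgeR. Of the 2008 long noncoding RNAs tested, 10.4% were called higher.

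Per transcript length, with TPM summed over the transcripts of each gene, the picture was different. TMEM161B-DT was at 12.3, 17.6 and 9.67 TPM in SCR1, at 12.6, 13.4 and 16.6 TPM with sgRNA_96 and at 11.7, 13.2 and 15.6 TPM with sgRNA_97, so that the KO values lay within the range of the controls. The spread of the controls was 3.99% of their mean in CPM and 30.7% in TPM. In limma on log2(TPM + 1) its log2 fold change was 0.09 (adjusted p = 0.777), and with an offset for the mean length of the gene's transcripts in each library it was 0.08 (adjusted p = 0.779 in edgeR). TMEM161B was at 10.3, 12 and 13.8 TPM in SCR1 and between 11.4 and 15.2 TPM in KO, with 2 of 6 KO libraries above all controls. In TPM, 7.63% of all genes had every KO library above every control. Its log2 fold change was 0.14 on log2(TPM + 1) (limma adjusted p = 0.506) and 0.15 with the length offset (edgeR adjusted p = 0.448). The length offset called 10.6% and limma on log2(TPM + 1) 8.59% of all genes, while limma on log2(TPM + 0.1) called 8.63%, and none of these called any of the 9 neighbours.

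**Figure D2:**
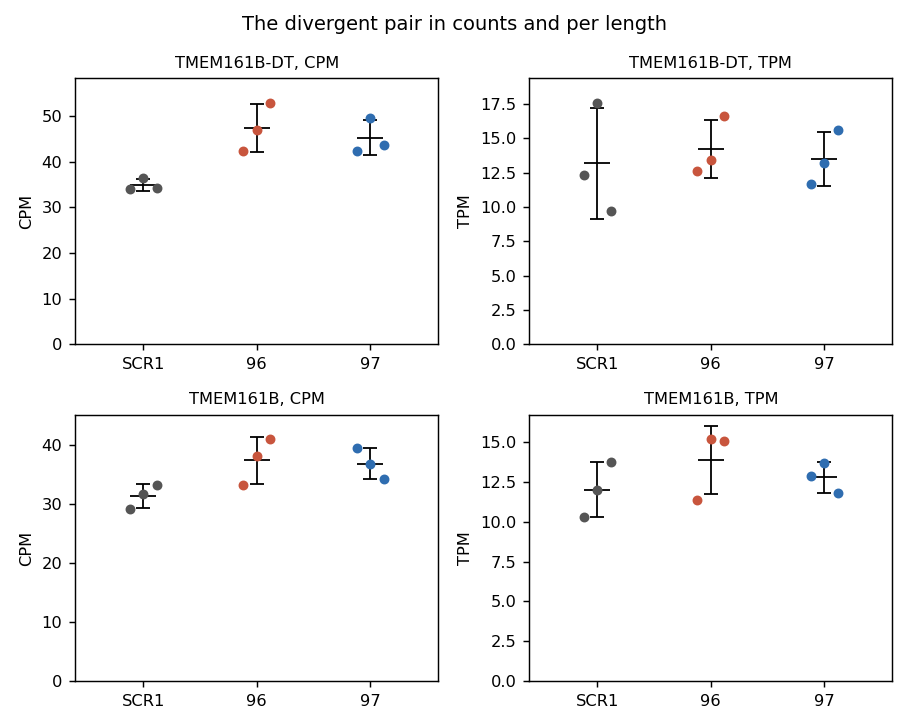
TMEM161B-DT and TMEM161B by library in CPM (left, counts) and TPM (right, per transcript length), for SCR1, sgRNA_96 (96) and sgRNA_97 (97), with n = 3 libraries each. Points are libraries, horizontal lines are means and bars are SD. In CPM every KO library of TMEM161B-DT (42.4 to 52.9) is above the controls (34 to 36.4), and in TPM the controls (9.67 to 17.6) span the KO values (11.7 to 16.6).

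Over all genes, the difference moved with length. When the genes tested were split into 5 equal bins by the mean length of their transcripts, the median log2 fold change was -0.05 in the shortest and 0.06 in the longest bin, and 3.95% and 19.6% were called higher. TMEM161B-DT, LYSMD3 and RASA1 belong to the longest bin, TMEM161B, MBLAC2 and ARRDC3 to the next, and CCNH and CETN3 to the shortest. With that trend taken out, TMEM161B-DT had a log2 fold change of 0.37 (edgeR adjusted p = 0.00152) and TMEM161B one of 0.22 (0.0383), while 18.6% of all genes were called. This correction was chosen after the data were seen.

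The transcripts behind the pair were long ones. TMEM161B-DT-257, with 15798 bases the main carrier of TMEM161B-DT, held 57.3% of the counts of the gene in SCR1 and 12.5% of its TPM. Its libraries read 19.4, 21.5 and 20.7 CPM in SCR1, 24.1, 27.6 and 30.4 CPM with sgRNA_96 and 26.9, 28.3 and 24.6 CPM with sgRNA_97, without overlap (log2 fold change 0.39, 95% interval 0.19 to 0.60, unadjusted p = 0.00215, adjusted p = 0.131 over all transcripts in edgeR). TMEM161B-DT-253, of 5261 bases, was at 4.94 ± 0.642 CPM in SCR1 (SD, n = 3) and 8.06 ± 1.73 CPM (SD, n = 6) in KO (adjusted p = 0.313). TMEM161B-DT-228 was listed at 0 in the 3 SCR1 libraries and in 2 of 6 KO libraries, and its highest KO value was 4.02 CPM. In TPM, TMEM161B-DT-257 was at 1.53 to 1.77 in SCR1 and 1.97 to 2.6 in KO, also without overlap. TMEM161B-DT-251, a shorter transcript of the gene, was at 1.32 to 1.96 TPM in SCR1 and 0 to 1.98 TPM in KO.

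Of the counts of TMEM161B in SCR1, 51.3% were assigned to TMEM161B-208, a transcript of 7608 bases annotated as a target of nonsense-mediated decay. It was at 15.7, 18.3 and 15.6 CPM in SCR1 and between 19.4 and 24.7 CPM in KO, without overlap (log2 fold change 0.35, 95% interval 0.11 to 0.59, adjusted p = 0.254 in edgeR). In TPM, TMEM161B-208 was at 2.6 to 3.15 in SCR1 and 3.37 to 4.24 in KO, and it held 23.1% of the TPM of the gene in SCR1. The coding transcript TMEM161B-201 was at 7.92 ± 1.98 CPM in SCR1 (SD, n = 3) and 10.5 ± 3.26 CPM (SD, n = 6) in KO (adjusted p = 0.845). Another coding transcript, TMEM161B-205, was at 2.45 to 2.68 TPM in SCR1 and 0.507 to 3.88 TPM in KO. Although the gene models overlap by 613 bases on opposite strands, and whether counting used strand is not given in the sources used here, the spans of the tested transcripts did not meet: the last base of those of TMEM161B is 88268848 and the first of those of TMEM161B-DT is 88268871.

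Across all 10 neighbours, 36 of 168 annotated transcripts passed the filter and 0 were called by edgeR, with 7 (19.4%) at an unadjusted p under 0.05. Of all 54988 transcripts tested, 0.633% were called and 9.8% had an unadjusted p under 0.05. The 7 include a TMEM161B-DT transcript listed at 0 in every SCR1 library, which could pass the filter only through its KO counts. They also include the tested RASA1 transcripts, which leaned in opposite directions while the gene had a log2 fold change of 0.08. Such members were not set apart, so no excess over all transcripts is read from the 19.4%. Salmon divides reads shared between transcripts by likelihood, and this test does not hold the error of that division.

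**Figure D3:**
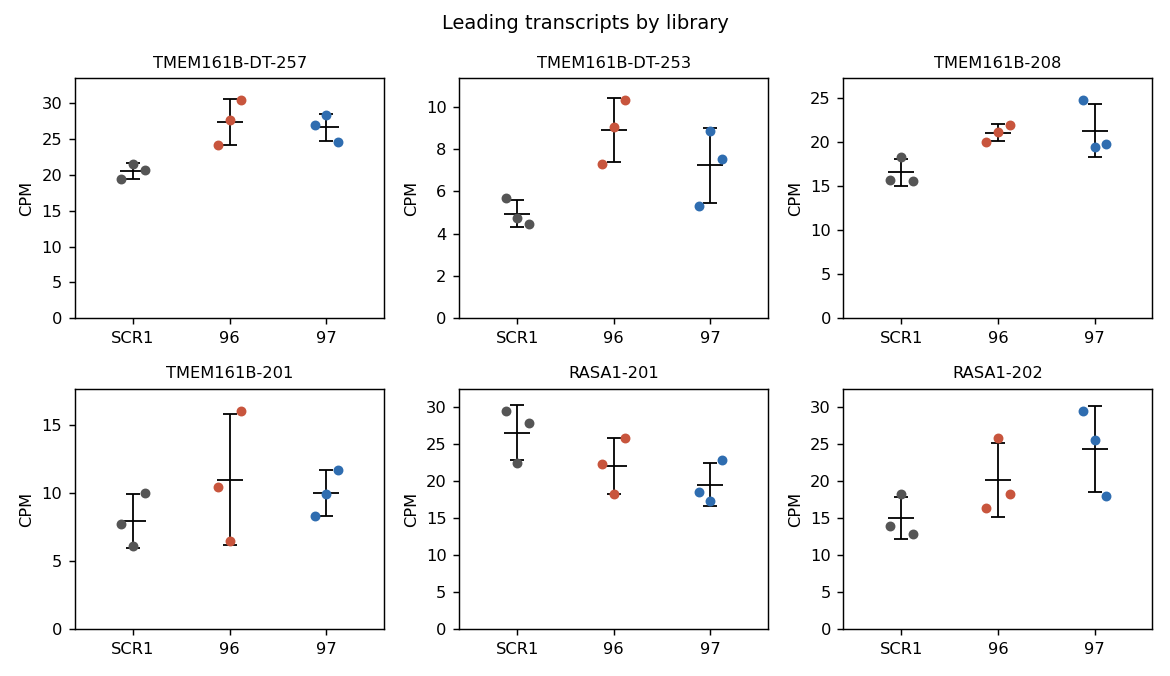
Leading transcripts of TMEM161B-DT, TMEM161B and RASA1 by library in CPM, for SCR1, sgRNA_96 (96) and sgRNA_97 (97), n = 3 each; points are libraries, lines means and bars SD. The KO libraries of TMEM161B-DT-257 (24.1 to 30.4) and TMEM161B-208 (19.4 to 24.7) sit above their controls, and RASA1-201 and RASA1-202 lean in opposite directions with overlapping groups.

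Because the pair moved together in counts, its start region is shown. The RefSeq promoter of TMEM161B-DT (GRCh38.p14, plus strand, chr5:88268766-88269065) shares 270 bases with that of TMEM161B. The letters CCGGAAG hold GGAA, the core of ETS-type binding sites, and were picked after the sequence was seen. They are in capitals where they occur on either strand, and other places with GGAA are not marked.
TMEM161B-DT promoter: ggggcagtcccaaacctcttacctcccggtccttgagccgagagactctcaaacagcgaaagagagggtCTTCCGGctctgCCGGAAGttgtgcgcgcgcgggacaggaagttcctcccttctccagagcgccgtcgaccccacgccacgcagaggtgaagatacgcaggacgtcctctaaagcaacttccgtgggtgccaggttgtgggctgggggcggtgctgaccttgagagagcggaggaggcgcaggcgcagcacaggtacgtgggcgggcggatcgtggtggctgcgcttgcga
CCGGAAG occurs 2 times here, counted over both strands. In a search of both strands, it was found in the promoters of LYSMD3, TMEM161B and TMEM161B-DT among 7 neighbours with a promoter entry. The same search found it in 10.3% of all 35116 RefSeq promoters. TTACATAA, the motif the guides cover, occurs in 0.886% of all promoters and TTACGTAA, its palindromic relative, in 0.125%. Neither is in the 9 promoters of these 7 neighbours or in the 7 of MEF2C.

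Within a library, the log2 ratio of TMEM161B-DT to TMEM161B in CPM was 0.15 ± 0.10 (SD, n = 3) in SCR1 and 0.32 ± 0.11 (SD, n = 6) in KO. The difference of 0.16 did not pass an exact two-sided permutation test (p = 0.0952). In TPM the ratio was 0.10 ± 0.56 in SCR1 and 0.05 ± 0.22 in KO (exact permutation p = 0.881).

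Toward lower coordinates lie CCNH and RASA1, 1.49 and 1.64 Mb from the MEF2C 5′ end. CCNH (ENSG00000134480.16, minus strand, chr5:87318416-87412930) is cyclin H, the partner of CDK7 in the kinase that activates cell cycle CDKs and that forms part of TFIIH. It was at 25, 23.4 and 20.9 CPM in SCR1, at 24.1, 26.3 and 26.1 CPM with sgRNA_96 and at 24.6, 29.6 and 24.8 CPM with sgRNA_97. The groups overlapped, with 3 of 6 KO libraries above all controls, and the log2 fold change of 0.16 (95% interval -0.01 to 0.33) missed the threshold (edgeR adjusted p = 0.167). Its coding transcript CCNH-201, with 75.9% of the counts of the gene in SCR1, was at 17.8 ± 2.05 CPM in SCR1 (SD, n = 3) and 17.3 ± 2.5 CPM (SD, n = 6) in KO. The retained-intron transcript CCNH-205 was at 1.08 ± 0.381 CPM and 1.89 ± 0.295 CPM (unadjusted p = 0.0409, adjusted p = 0.486 in edgeR).

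RASA1 (ENSG00000145715.15, plus strand, chr5:87267883-87391931) encodes p120 RasGAP, which speeds the return of Ras to its GDP-bound form. Its level was 42.5, 39.6 and 39.9 CPM in SCR1, 38.8, 44 and 44.1 CPM with sgRNA_96 and 47.8, 43.2 and 40.6 CPM with sgRNA_97. The groups overlapped, and the log2 fold change was 0.08 (95% interval -0.06 to 0.22, edgeR adjusted p = 0.417). Its coding transcripts leaned apart: RASA1-201 had a log2 fold change of -0.35 (95% interval -0.69 to -0.01, 26.5 ± 3.72 CPM in SCR1, n = 3, and 20.8 ± 3.35 CPM in KO, n = 6), and RASA1-202 one of 0.57 (0.07 to 1.08, 15 ± 2.83 and 22.3 ± 5.38 CPM). Neither passed over all transcripts (adjusted p = 0.503 and 0.425 in edgeR).

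On the other side of MEF2C, CETN3, MBLAC2, POLR3G, LYSMD3 and ADGRV1 start between 1.51 and 1.63 Mb away. CETN3 (ENSG00000153140.9, minus strand, chr5:90392257-90409766) encodes centrin 3, a calcium-binding protein of the centrosome. Its level was 20.6 ± 1.52 CPM in SCR1 (SD, n = 3) and 22.2 ± 1.93 CPM (SD, n = 6) in KO, with a log2 fold change of 0.11 (95% interval -0.07 to 0.28, edgeR adjusted p = 0.391).

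MBLAC2 (ENSG00000176055.10, minus strand, chr5:90458209-90474771), a metallo-beta-lactamase domain enzyme, was at 9.27, 9.29 and 9.12 CPM in SCR1. It was at 8.51, 10.7 and 13.5 CPM with sgRNA_96 and at 11.4, 11.1 and 10.9 CPM with sgRNA_97, so that 5 of 6 KO libraries were above all controls and 1 was below them. The controls lay close together, with an SD of 0.0922 CPM against 1.6 CPM in KO. The log2 fold change of 0.26 (95% interval 0.01 to 0.51) was as large as that of TMEM161B, with a wider interval at its lower counts, and did not pass over all genes (unadjusted p = 0.0444, edgeR adjusted p = 0.137). It passed only when sgRNA_96 replicate 1, the lowest library, was left out (adjusted p = 0.0324 in edgeR).

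POLR3G (ENSG00000113356.13, plus strand, chr5:90471748-90514557) encodes a subunit of RNA polymerase III that is high in stem cells and that POLR3GL can replace. It was at 11.4, 8.78 and 10.3 CPM in SCR1, at 8.89, 8.27 and 9.55 CPM with sgRNA_96 and at 11.1, 7.69 and 9.38 CPM with sgRNA_97. The groups overlapped, and the log2 fold change of -0.16 (95% interval -0.42 to 0.09) was below 0 but not called (edgeR adjusted p = 0.376). MBLAC2 and POLR3G have gene models that overlap on opposite strands, as have CCNH and RASA1.

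LYSMD3 (ENSG00000176018.13, minus strand, chr5:90515611-90529584), a membrane protein with a LysM domain, and ADGRV1 (ENSG00000164199.18, plus strand, chr5:90529344-91164437), an adhesion receptor of the inner ear and retina, form the second divergent pair by gene model, with annotated 5′ ends 240 bases apart. Their RefSeq promoters lie farther apart, at chr5:90529535-90529834 for LYSMD3 and chr5:90558547-90558846 for ADGRV1. LYSMD3 was at 25 ± 0.745 CPM in SCR1 (SD, n = 3) and 25.9 ± 1.76 CPM (SD, n = 6) in KO, with a log2 fold change of 0.05 (95% interval -0.10 to 0.20, edgeR adjusted p = 0.657). ADGRV1 was close to absent from the counts, with 1 count in SCR1 replicate 1, 2 counts in sgRNA_96 replicate 1 and 0 in the other 7 libraries, and was not tested in the fit across genes. An exact two-sided permutation test of its mean log2(CPM + 0.5) gave p = 1, and at this depth a fall from the control level would not have been detectable.

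ARRDC3 (ENSG00000113369.9, minus strand, chr5:91368631-91383317) encodes an alpha-arrestin of receptor trafficking and is the farthest neighbour, at 2.48 Mb. It was weakly expressed, with 13 to 38 counts per library. Its level was 1.14 ± 0.134 CPM in SCR1 (SD, n = 3) and 1.13 ± 0.312 CPM (SD, n = 6) in KO, and the interval of its log2 fold change of -0.02, from -0.67 to 0.63, was the widest of the 9 (edgeR adjusted p = 0.978).

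**Figure D4:**
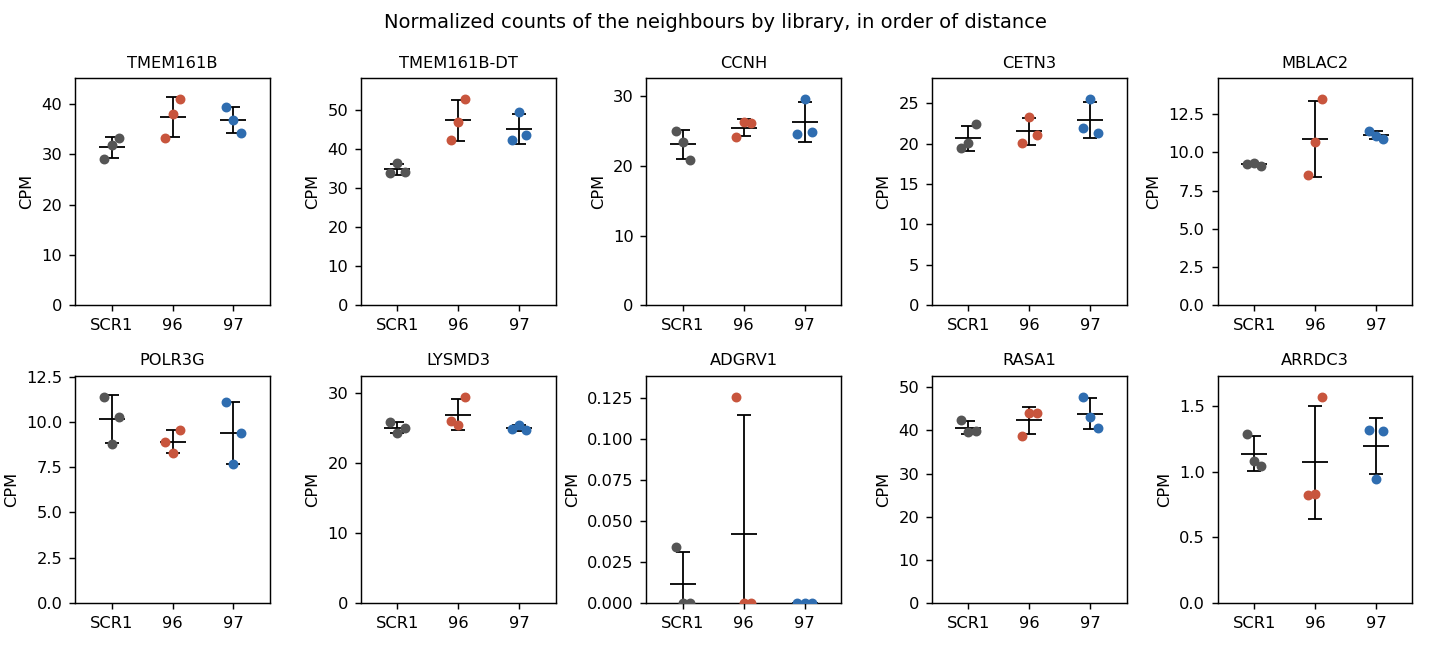
CPM of the 10 neighbours by library, in order of distance from the MEF2C promoter, for SCR1, sgRNA_96 (96) and sgRNA_97 (97), n = 3 each; each panel has its own axis from 0, points are libraries, lines means and bars SD. TMEM161B-DT is the only panel with a clear gap between controls (34 to 36.4) and KO (42.4 to 52.9), and ADGRV1 holds 3 counts in all.

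Per transcript length, CETN3 and CCNH were the most abundant neighbours in SCR1, at 42.7 ± 4.11 TPM and 27.5 ± 3.89 TPM (SD, n = 3), against 228 ± 13.9 TPM for MEF2C. TMEM161B-DT (13.2 ± 4.06 TPM), RASA1 (12.7 ± 0.7 TPM) and TMEM161B (12 ± 1.75 TPM) followed with overlapping ranges. LYSMD3 (8.4 ± 0.82 TPM) and POLR3G (7.03 ± 0.842 TPM) also overlapped. MBLAC2 was at 3.68 ± 0.129 TPM, ARRDC3 at 0.358 ± 0.0399 TPM and ADGRV1 between 0 and 0.0938 TPM, each below the one before without overlap.

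The whole neighbourhood was read as well. Within 3 Mb of the MEF2C 5′ end, 78 other genes are annotated and 11 were tested. Under 1 Mb, 2 of 3 genes tested were called, from 1 to 2 Mb 0 of 6 and from 2 to 3 Mb 0 of 2, beside the 20.7% of all genes. Apart from the neighbours, the tested genes were COX7C, a subunit of cytochrome c oxidase, and MEF2C-AS1, an antisense RNA of MEF2C, named because no others remained. COX7C was at 156 ± 5.61 CPM in SCR1 (SD, n = 3) and 146 ± 6.41 CPM (SD, n = 6) in KO (log2 fold change -0.10, edgeR adjusted p = 0.157). MEF2C-AS1 was at 3.08 ± 0.842 and 3.79 ± 0.947 CPM (log2 fold change 0.31, 95% interval -0.16 to 0.79, edgeR adjusted p = 0.361), and without strand its reads cannot be told apart from those of MEF2C where they overlap.

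With each guide set against SCR1, TMEM161B-DT was the neighbour that was called. Its log2 fold change was 0.45 with sgRNA_96 (95% interval 0.27 to 0.63, edgeR adjusted p = 0.00352), where 11.2% of all genes were called and 5.78% were higher, and 0.38 with sgRNA_97 (0.20 to 0.56, adjusted p = 0.00853), where 15.1% were called and 7.35% were higher. Without sgRNA_97 replicate 3 the second call was lost (adjusted p = 0.0576 in edgeR). Both comparisons use the same SCR1 libraries. TMEM161B had log2 fold changes of 0.26 and 0.24 (edgeR adjusted p = 0.0669 and 0.084), CCNH of 0.14 and 0.19, and MBLAC2 of 0.25 and 0.27. POLR3G was at -0.20 and -0.13. CETN3 was at 0.06 and 0.15, RASA1 at 0.06 and 0.10, LYSMD3 at 0.10 and -0.01 and ARRDC3 at -0.09 and 0.05. Between the guides, edgeR called 0 of the 9 neighbours, none had an unadjusted p under 0.05, and 3 genes of all tested (0.0208%) were called, against 8 in DESeq2. The difference of sgRNA_97 from sgRNA_96 for TMEM161B-DT was -0.07 (95% interval -0.25 to 0.11) and for TMEM161B -0.03 (-0.21 to 0.16).

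**Figure D5:**
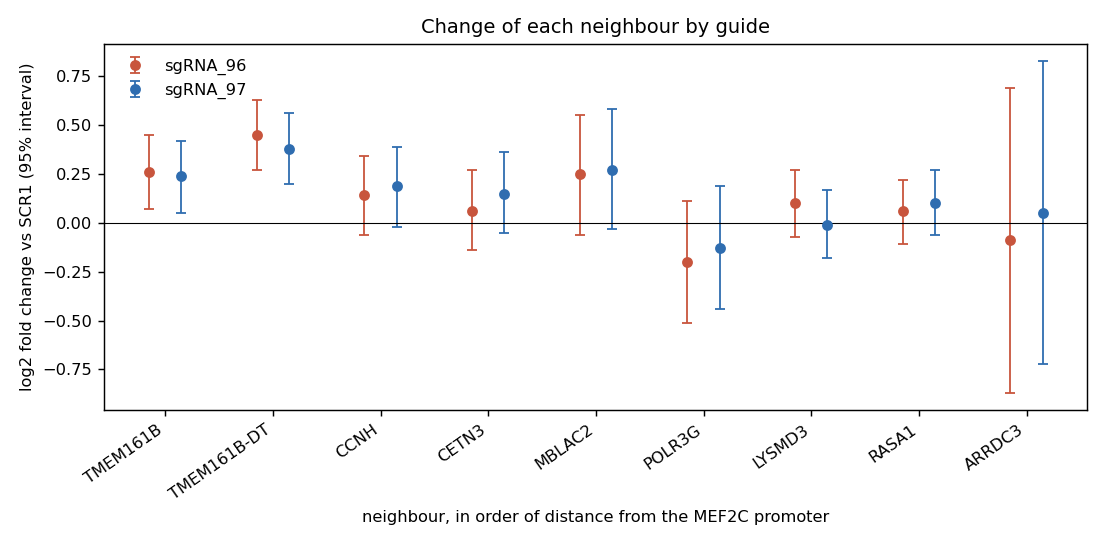
Log2 fold change of the 9 neighbours tested, sgRNA_96 and sgRNA_97 each against the same 3 SCR1 libraries, in order of distance from the MEF2C promoter; bars are 95% intervals. For TMEM161B-DT (0.45 and 0.38) and TMEM161B (0.26 and 0.24) the intervals of both guides lie above 0, and only those of TMEM161B-DT go with an adjusted p under 0.05.

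Against MEF2C within the same library, which does not depend on the scaling between libraries, 5 of the 9 neighbours tested had a ratio that was higher in KO by an exact permutation test. MEF2C itself was lower there in 5 of 6 libraries, so that part of each ratio is its own. The share of all genes that would pass the same test is not given here. The count of 5 can therefore not be read as particular to the neighbours. In CPM the log2 ratio rose by 0.52 for TMEM161B-DT (-3.99 ± 0.05 in SCR1, n = 3, and -3.46 ± 0.16 in KO, n = 6), by 0.36 for TMEM161B and for MBLAC2, and by 0.20 for RASA1, each without overlap and with an exact two-sided permutation p of 0.0238, the smallest that 84 arrangements can give. For CCNH it rose by 0.28 (exact permutation p = 0.0476). The differences of 0.22 for CETN3, 0.17 for LYSMD3, 0.07 for ARRDC3 and -0.04 for POLR3G did not pass (exact permutation p = 0.0952, 0.0714, 0.833 and 0.69). In TPM, RASA1 (0.29) and CCNH (0.36) had a p of 0.0238 by the exact permutation test, and TMEM161B-DT did not pass (0.27, p = 0.238). These are 9 tests in CPM and 9 in TPM, and their p-values are not adjusted.

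The relatives of the neighbours elsewhere in the genome were read from fixed lists, beside the 10.1% of all genes called higher and the 10.6% called lower. Of 10 genes of the CDK-activating kinase and TFIIH, to which CCNH belongs, 1 was called, GTF2H2, a TFIIH core subunit (log2 fold change 0.21, 42.2 ± 0.801 CPM in SCR1, n = 3, and 49 ± 2.57 CPM in KO, n = 6, edgeR adjusted p = 0.0136). Of 16 genes of RNA polymerase III and its factors, 2 were called lower, the subunits POLR3K (-0.29, adjusted p = 0.0311 in edgeR) and CRCP (-0.23, adjusted p = 0.0095), and the list median was -0.07.

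The alpha-arrestins, the family of ARRDC3, held the largest differences among these lists. Of 6 genes tested, ARRDC3 included, 3 were called, all higher. TXNIP, which binds thioredoxin and limits glucose uptake, averaged 61.8 ± 6.01 CPM (SD) over 3 controls and 136 ± 21.6 CPM over 6 KO libraries. This is a difference of 1.15 on the log2 scale (edgeR adjusted p = 5.23e-06). ARRDC4, its close relative in glucose uptake, went from 6.41 ± 0.978 to 11.3 ± 1.44 CPM (0.83, adjusted p = 0.000435 in edgeR), and ARRDC5 from 0.249 ± 0.052 to 0.621 ± 0.186 CPM (1.30, adjusted p = 0.0427 in edgeR). The call of ARRDC5 rests on few counts, with controls at 0.189 to 0.285 CPM and KO libraries at 0.416 to 0.86 CPM. The size of its difference is uncertain (interval 0.39 to 2.25).

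Among the Ras GTPase-activating proteins, the family of RASA1, NF1 and RASA2 were called higher, and RASA1 was not called. NF1, neurofibromin, had a log2 fold change of 0.28 (edgeR adjusted p = 0.00188) and RASA2 of 0.34 (adjusted p = 0.00234). Of 7 adhesion receptors tested, ADGRE2, a receptor of myeloid cells, was called higher (0.49, adjusted p = 9.14e-05 in edgeR, from 38.2 ± 4.72 CPM in SCR1 to 53.4 ± 0.661 CPM in KO). No centrin partner (4 tested), LysM protein (4) or MBLAC protein (2) was called by edgeR, and of the TMEM161 proteins TMEM161B was called and TMEM161A was not. With the length offset, TXNIP, ARRDC4, NF1, RASA2, CRCP and ADGRE2 were still called, and GTF2H2, POLR3K and ARRDC5 were not.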

How the data were processed

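RNA of 9 libraries, 3 each for sgRNA_96, sgRNA_97 and SCR1 as named by the sample titles, was sequenced by the authors from TruSeq libraries, trimmed with TrimGalore, aligned to hg38 (GRCh38) with STAR and quantified with Salmon 1.10.1. The authors deposited estimated counts per transcript, without normalization, and TPM, which Salmon scales to 1000000 per library by transcript length. All 252835 transcript identifiers matched GENCODE release 44, and coordinates are from that release. Among values above 0 in the deposited table of estimated counts, 87.8% had a decimal part, and they were summed per gene, then rounded. Strand use in counting is not given in the sources used here.

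Genes were filtered by filterByExpr (minimum count 10), scaled by TMM and fitted in edgeR 4.0.16 (R 4.3.3; glmQLFit and glmQLFTest), and p-values were adjusted by Benjamini and Hochberg's method across every gene tested (threshold 0.05) and the 6 KO libraries as 1 group; guides were compared in 1 fit with 3 groups. Intervals are 95% intervals from the moderated standard error. DESeq2 1.42.0, which the study's methods name, limma 3.58.1 on log2(TPM + 1) and log2(TPM + 0.1), median-ratio size factors, no filter, a gene length offset from counts over TPM, a replicate block and leaving out each library were alternatives, and a length trend offset was added after the data were seen. Log2 changes on the TPM scales understate low genes. Exact permutation tests used scipy 1.17.1. The fit was tested on simulated data. Chi-square over degrees of freedom was 4.31 to 8.59 between replicates of a group, so no library was a copy of another in its group. Total counts of 15212462 to 29777361 limit the precision of low genes; counting error is only part of the replicate error.

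The members and lists were chosen with earlier results of these data known. The named genes are the 10 neighbours with MEF2C, every gene called within 3 Mb of it, and from each of 9 lists of relatives the genes called, at most 5. A result of the list of Ras GTPase-activating proteins is not reported here, and no count is given for that list.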

Additional observations from a re-analysis of the deposited data

Results flagged for a closer look

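Among the 6 enhancer KO libraries, 3 of 11 genes had a library set apart from the rest by Dixon's ratio for 6 values. For normally distributed values chance gives this in about 1 of 20 groups, and the share over all genes tested is not given here. For MEF2C the ratio was 0.737, with sgRNA_97 replicate 1 at 553 CPM and the other 5 libraries between 495 and 510.1 CPM. For LYSMD3 it was 0.722, with sgRNA_96 replicate 4 at 29.4 CPM and the next library at 25.9 CPM. For ADGRV1 it was 1, because a single library held its 2 KO counts, so the rate for normally distributed values does not apply there.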

How the results depend on the processing

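The calls of the neighbours were lost where the transcript length of each library was corrected for, and both held with the length trend offset (TMEM161B 0.22, TMEM161B-DT 0.37). With limma on log2(TPM + 1), limma on log2(TPM + 0.1) and the gene length offset, in this order throughout, 1240, 1246 and 1526 genes were called in place of 2984. The neighbours called numbered 0, 0 and 0, for KO and for each guide, as did the genes called within 3 Mb of MEF2C. TMEM161B stood at log2 fold changes of 0.14, 0.15 and 0.15 and TMEM161B-DT at 0.09, 0.10 and 0.08. On the same 3 scales the sign turned for LYSMD3 (-0.01, -0.01 and -0.02) and ARRDC3 (0.23, 0.47 and 0.69, and with sgRNA_96 0.44, 0.90 and 1.24). Between guides it turned for CCNH (-0.07, -0.08 and -0.06), POLR3G (-0.03, -0.04 and -0.01) and ARRDC3 (-0.42, -0.84 and -1.17), none of which was called. Relative to MEF2C in TPM, TMEM161B (0.32), TMEM161B-DT (0.27) and MBLAC2 (0.39) no longer passed, LYSMD3 (0.16) passed, and POLR3G turned to 0.01. ARRDC3 in sgRNA_96 replicates 1 and 4 owes most of its TPM to 3 and 6 counts of a transcript of 531 bases. The cause of the other changes was not tested. MEF2C was called at -0.12 in DESeq2 and at -0.14 with the length trend offset, which was chosen after the data were seen. Without the filter, 2 neighbours were called with sgRNA_96, the second being TMEM161B.

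When single libraries were left out, 1503 (without SCR1 replicate 1) to 3547 (without sgRNA_96 replicate 1) genes were called, with 1 to 3 neighbours in KO, 1 to 2 with sgRNA_96, 0 to 1 with sgRNA_97 (0 without sgRNA_97 replicate 3) and 1 to 3 genes within 3 Mb. Against SCR1 the log2 fold change ranged from -0.14 to -0.11 for MEF2C (called without sgRNA_97 replicate 1, edgeR adjusted p = 0.0143), 0.19 to 0.29 for TMEM161B, 0.37 to 0.44 for TMEM161B-DT, 0.19 to 0.32 for MBLAC2 and -0.14 to 0.09 for ARRDC3. For sgRNA_96 it ranged from 0.00 to 0.12 for CETN3 and -0.47 to 0.08 for ARRDC3, and for sgRNA_97 from -0.27 to 0.00 for POLR3G, -0.03 to 0.02 for LYSMD3 and -0.03 to 0.20 for ARRDC3. Between guides it ranged from 0.00 to 0.07 for MEF2C, -0.10 to 0.04 for TMEM161B, -0.14 to 0.02 for TMEM161B-DT, -0.04 to 0.09 for CCNH, -0.12 to 0.20 for MBLAC2, -0.06 to 0.20 for POLR3G, -0.02 to 0.10 for RASA1 and -0.02 to 0.52 for ARRDC3. Relative to MEF2C it ranged from 0.30 to 0.42 for TMEM161B, 0.48 to 0.57 for TMEM161B-DT, 0.23 to 0.33 for CCNH, 0.30 to 0.43 for MBLAC2, -0.15 to 0.04 for POLR3G, 0.13 to 0.20 for LYSMD3, 0.17 to 0.22 for RASA1 and -0.03 to 0.15 for ARRDC3. Without a control library the smallest p that permutations can give is 0.0714, so that none of these ratios could pass there. Over all 9 runs that left out a library, the ratio of CCNH passed in 1, as did that of LYSMD3.

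Replicate numbers did not pair the samples. Deviations of same-numbered libraries correlated at -0.0844 to 0.0655 over 9 pairs, and 3 of 9 libraries correlated best with their own number. With the replicate block, 2936 genes and 2 neighbours were called, TMEM161B at 0.25 and TMEM161B-DT at 0.41, and no call of a neighbour changed. Median-ratio size factors changed no call of a neighbour either.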
